A study of Pantherophis guttatus with 6 samples.

Results

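Oxidative phosphorylation is the mitochondrial process that couples the oxidation of NADH and succinate to the synthesis of ATP, and most of its protein subunits are encoded in the nucleus. The genes described here are those rows of the count table whose name marks a nuclear-encoded subunit of complexes I to V or an assembly factor with the NDUFAF prefix. They were chosen by name alone, from the prefixes NDUFA, NDUFB, NDUFC, NDUFS, NDUFV, UQCR, ATP5F1, ATP5M, ATP5P and COX4 to COX8, with *SDHA*, *SDHB*, *SDHC* and *SDHD*. The choice of this gene set was made with earlier results of these data known, though the rule used no measured value. The rule found 90 of the 25731 complete genes of the table. It also asked for *CYC1* and *CYCS*, which the table holds only with the ending "-like", so *CYC1*-like and *CYCS*-like are given beside the 90 members and are not counted among them. By complex, 38 members belong to complex I, 8 are NDUFAF assembly factors, 4 belong to complex II, 7 to complex III, 16 to complex IV and 17 to complex V. *NDUFA4* and *NDUFA4*-like were placed with complex IV, to which the protein is now assigned in spite of its name.

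The tissue was dorsal skin of corn snake embryos (*Pantherophis guttatus*) at embryonic day 40, sequenced as bulk poly(A) RNA. One group held 3 embryos homozygous for the hypomelanistic allele (mh/mh), a recessive morph with reduced dark pigment, and the other held 3 wild-type embryos (+/+). All embryos came from a single clutch of heterozygous parents and were genotyped with markers at the edge of the mapped interval. The labels give neither sex nor batch. Each library is a separate embryo, named here by genotype and replicate number, and the labels do not pair embryos by number.

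In the respiratory chain, complex I passes electrons from NADH to coenzyme Q, and complex II, which is also the succinate dehydrogenase of the citric acid cycle, does so from succinate. Complex III passes them on to cytochrome c and complex IV to oxygen. Complexes I, III and IV pump protons across the inner membrane, and complex V, the ATP synthase, uses the returning protons to make ATP. The catalytic center of complex I is formed by core subunits shared with bacteria, and around it lie supernumerary subunits that animals have in addition.

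Total counts per library were between 29958657 and 38541392. *TYR*, the melanin synthesis enzyme in the interval mapped by the study, had 4.78, 5.13 and 5.01 CPM (read counts scaled by library size and TMM factor) in hypomelanistic embryos 1 to 3, against 42.6, 34.5 and 34.5 CPM in wild-type embryos 1 to 3. The labels and *TYR* thus went together in all 6 libraries (log2 fold change -2.90 ± 0.115 SE, edgeR adjusted p = 0.000415). Hypomelanistic embryo 1 stood apart from the other 5 libraries on the first principal component (-32.6, against -1.58 to 11.2). The study ascribes the leading component of its own analysis of these embryos, made with another transformation, to their sex. The labels used here do not give sex. Whether that component is the one given here was not tested, nor was the part of sex in the members' values. Ribosomal RNA took 8.96%, 10.2% and 11.5% of the counts in hypomelanistic embryos 1 to 3. In wild-type embryos 1 to 3 it took 6.48%, 6.30% and 7.89%, below all hypomelanistic values. With those 24 ribosomal RNA genes left out before scaling, the members described below divided as with them, 57 higher and 30 lower. That fit changes little but the scaling, and the part of RNA preparation in the members' values was not tested. All 8 fibroblast markers listed for skin were lower in hypomelanistic embryos. Their median log2 fold change was -0.23, from -0.48 for *POSTN* to -0.01 for *COL1A1*. edgeR and DESeq2 called 0 of them, beside 0.0235% and 0.475% of all genes. In edgeR 2 had an unadjusted p under 0.05, beside 5.63% of all tested genes. The 8 markers summed to 99144, 119008 and 98401 CPM in hypomelanistic embryos 1 to 3. In wild-type embryos 1 to 3 the sums were 113056, 115351 and 112363 CPM. *COL1A1*, *COL1A2* and *COL3A1* made up most of these sums. The part of the fibroblast markers in the members' values was not tested. Keratinocyte markers were 3 higher and 3 lower, erythroid markers 4 and 3, and endothelial markers 2 and 3. Neither tool called any of these. In edgeR 2 keratinocyte markers (*TP63* higher, *EVPL* lower), 0 erythroid and 1 endothelial (*EGFL7*, higher) had an unadjusted p under 0.05, beside 5.63% of all tested genes. Melanophore markers, *TYR* included, were 1 higher and 6 lower. Both tools called only *TYR* among them, beside 0.0235% and 0.475% of all genes. Only *TYR* had an unadjusted p under 0.05 in edgeR, beside 5.63% of all tested genes. *TYRP1*, *DCT*, *PMEL*, *SOX10* and *MITF* had log2 fold changes between -0.20 (*DCT*) and -0.02 (*PMEL*), and *MLANA* 0.14. Fewer cells of a type and less RNA per cell cannot be told apart in bulk skin.

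The members were expressed well above most genes of the skin, with a median length-scaled level (CPM per kb of annotated gene length) of 48.7, beside 4.43 over all tested genes. Together they took 0.432%, 0.440% and 0.460% of the counts in hypomelanistic embryos 1 to 3, against 0.455%, 0.433% and 0.440% in wild-type embryos 1 to 3, and the groups overlapped. The median complex V member had 90.6 CPM per kb over the 6 libraries, the median complex IV member 77.6, complex III 47.7, complex II 45.1 and complex I 36.9. The NDUFAF factors, which help to build complex I and are not part of it, were lower, with a median level of 6.81 CPM per kb.

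*ATP5MC3*, one of 3 genes for the c subunit of the ATP synthase rotor, had the highest level of complex V at 184 CPM per kb. The subunits *ATP5F1B* (183 CPM per kb) and *ATP5F1A* (181 CPM per kb) of the catalytic head followed it closely. At the head of complex IV stood *NDUFA4* with 165 CPM per kb, and at the head of complex I *NDUFS5* with 116 CPM per kb. *UQCR10*-like led complex III with 98.3 CPM per kb and *SDHD*, a membrane anchor subunit, led complex II with 84.7 CPM per kb. Among the NDUFAF factors the highest was *NDUFAF7*, an arginine methyltransferase, with 18.6 CPM per kb.

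**Figure D1:**
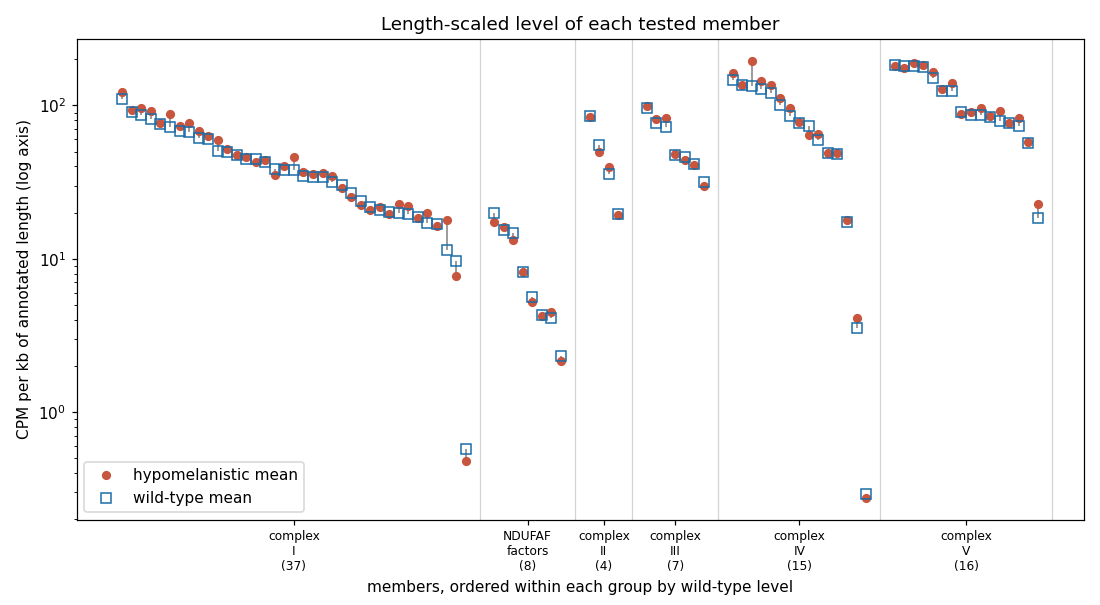
Mean level of each of the 87 tested members in hypomelanistic (filled circles, 3 embryos) and wild-type skin (open squares, 3 embryos), in CPM per kb of annotated gene length on a log axis, ordered by wild-type level within each complex. Over the 6 libraries the members span mean levels of 0.283 CPM per kb (*NDUFA4*-like) to 184 CPM per kb (*ATP5MC3*), and the group means of a gene lie close together beside that range.

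A low-count filter left 87 of the 90 members among 17025 tested genes. The 3 others were near or at 0 in every library. *NDUFA10*-like (LOC117666534) had 0 counts in each hypomelanistic library, against 1, 1 and 0 counts in wild-type libraries 1 to 3. *COX6B1*-like (LOC117666708) had 1, 1 and 0 counts in hypomelanistic libraries 1 to 3, against 0 in each wild-type library. *ATP5F1E*-like (LOC117666059) had 0 counts in all 6 libraries.

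None of the 87 tested members passed the edgeR quasi-likelihood test at a Benjamini-Hochberg adjusted p of 0.05, beside 0.0235% of all tested genes called. The lowest adjusted p among them was 0.828. DESeq2 called none of them either, beside 0.475% of all genes with an adjusted p in that tool, and its lowest adjusted p was 0.446 (7 of 89 members at an unadjusted p under 0.05, beside 4.17% of all genes). At an unadjusted p under 0.05 in edgeR there were 9 members higher in hypomelanistic embryos and 1 lower, that is 11.5% of the members beside 5.63% of all tested genes (2.97% higher and 2.65% lower). By direction alone, 57 members were higher and 30 lower in hypomelanistic skin. The 65.5% that were higher stand beside 51.0% of all tested genes.

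The differences were small and well bounded. The median log2 fold change of the members was 0.05, with quartiles at -0.02 and 0.15, beside a median of 0.00 over all tested genes, with quartiles at -0.10 and 0.12. The fold change passed 1.25-fold in either direction for 2 members, *NDUFA3* and *NDUFA4*, which is 2.30% of them, beside 15.2% of all tested genes. All tested genes had a lower median level than the members, and genes of equal level were not compared. For 79 of 87 members the 95% interval of the fold change lay inside 1.5-fold either way. The 8 whose interval reached past that were *NDUFC1*, *NDUFS3*-like, *NDUFA3*, *NDUFAF7*, *NDUFA4*, *NDUFA4*-like, *ATP5MC1* and *COX6A1*-like (LOC117666818).

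All hypomelanistic values lay above all wild-type values for 12 members, beside 5.77% of all tested genes, and below them for 2 members, beside 6.39%. Among the 12 were *NDUFA3*, *NDUFB2*, *NDUFB11*, *NDUFC2*, *NDUFS4*, *NDUFS5*, *SDHC*, *COX6A2*-like (LOC117677904), *NDUFA4*, *ATP5F1D* and *ATP5MK*. The 2 were *NDUFV3* and *SDHB*. In either direction this is 14 of 87 members, beside 12.2% of all tested genes.

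**Figure D2:**
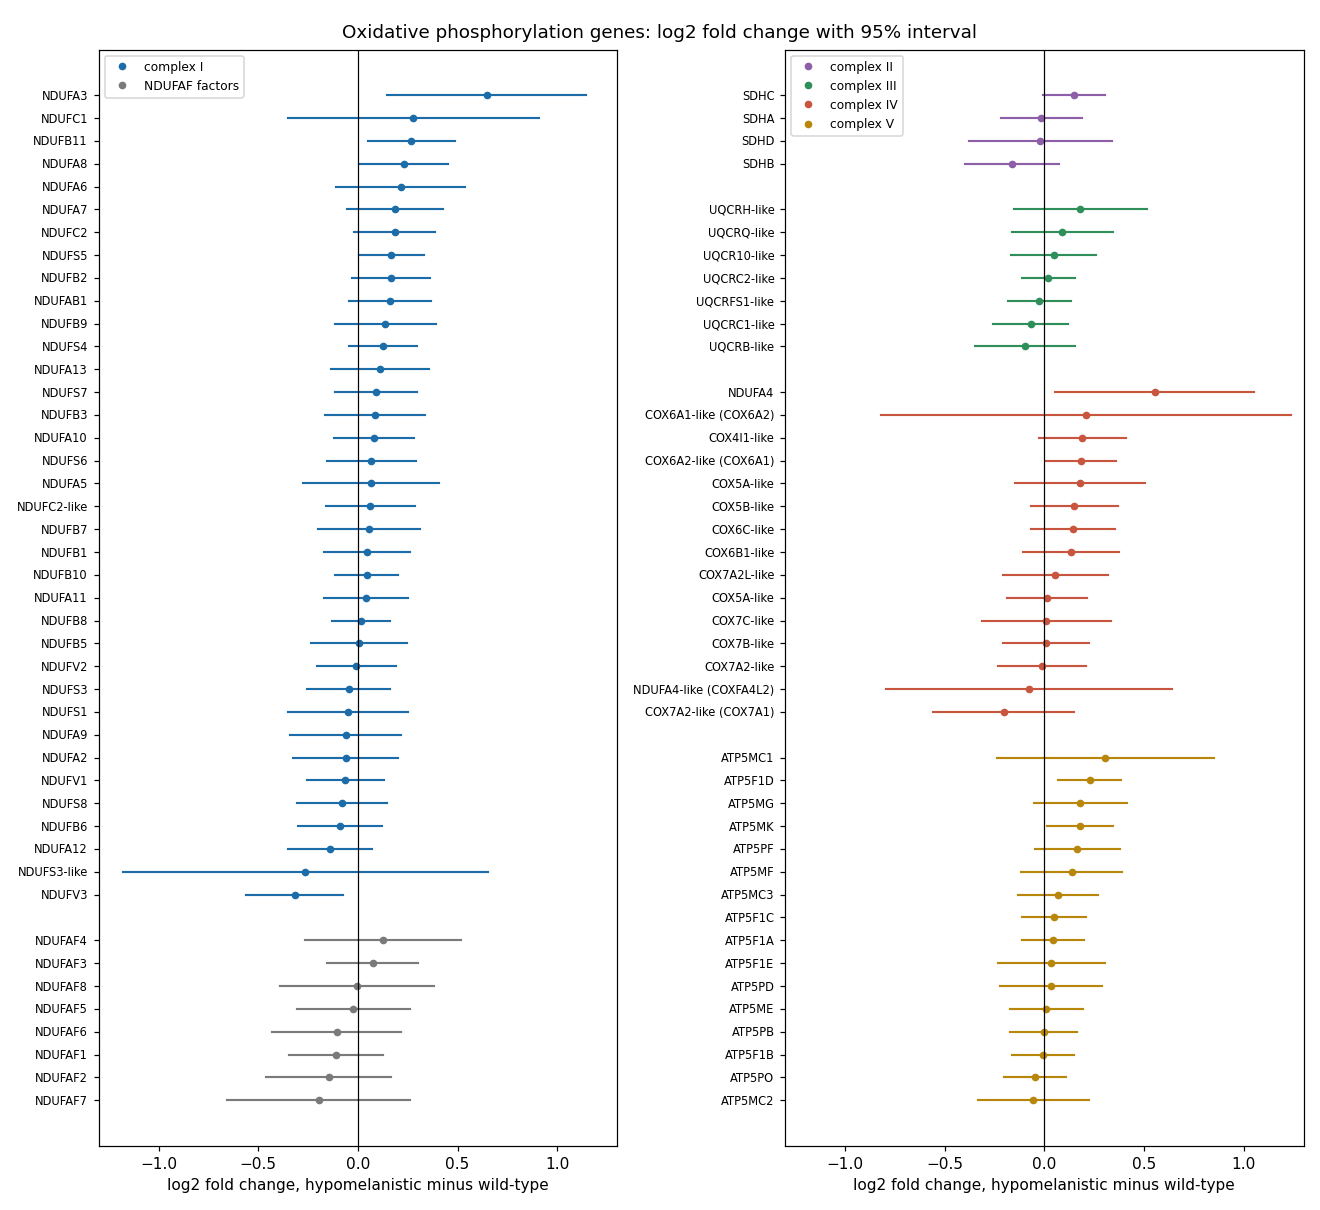
Log2 fold change of the tested members (points, with 1 member left out; positive values are higher in the 3 hypomelanistic embryos than in the 3 wild-type embryos) with its 95% interval from edgeR (lines), ordered within each complex. Most points lie within 0.3 of zero, and none of the 87 members passed the test after adjustment; names in brackets are those of a newer annotation where it differs.

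The members ordered the libraries in a way that crossed the genotypes. Over the 87 members, the median deviation of log2 CPM from the mean of the 6 libraries was -0.09, 0.05 and 0.13 in hypomelanistic embryos 1 to 3, against 0.03, -0.09 and -0.02 in wild-type embryos 1 to 3. Hypomelanistic embryo 3 held the highest value of 45 members (51.7%, beside 17.97% of all tested genes). The lowest value fell in hypomelanistic embryo 1 for 34 members (39.1%, beside 22.6%) and in wild-type embryo 2 for 30 members (34.5%, beside 17.99%). The low libraries came from both genotypes.

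The summed level of all tested members was 4269, 4547 and 4797 CPM in hypomelanistic embryos 1 to 3, against 4458, 4184 and 4372 CPM in wild-type embryos 1 to 3. Those sums overlapped between the groups, with means of 4538 ± 264 CPM in hypomelanistic and 4338 ± 140 CPM in wild-type embryos (SD, n = 3 each). Without hypomelanistic embryo 1, 70 members were higher and 17 lower in hypomelanistic embryos and 20 had an unadjusted p under 0.05 (23.0%, beside 5.97% of all tested genes), none past adjustment. Without hypomelanistic embryo 3 the split was 49 higher and 38 lower, with 3 at an unadjusted p under 0.05 (3.45%, beside 5.33% of all tested genes). Leaving out wild-type embryo 2 gave 53 higher and 34 lower, with 2 at an unadjusted p under 0.05 (2.30%, beside 3.52% of all tested genes).

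**Figure D3:**
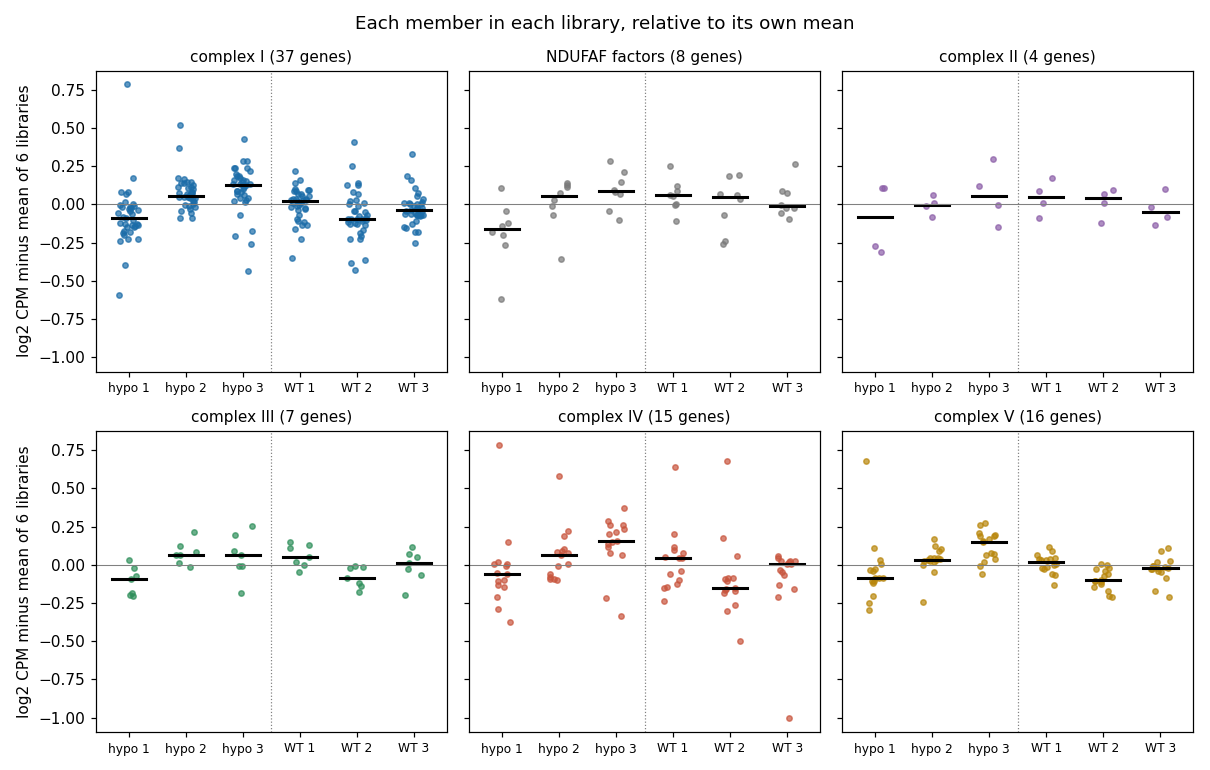
Log2 CPM of each tested member in each of the 6 libraries minus its mean over the libraries, by complex, with the 3 hypomelanistic libraries (hypo) left of the dotted line and the 3 wild-type libraries (WT) right of it; bars are medians. Over all members the medians were -0.09, 0.05 and 0.13 in hypomelanistic libraries and 0.03, -0.09 and -0.02 in wild-type libraries.

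In other short transcripts, too, hypomelanistic embryo 3 was the highest library, and wild-type embryo 2 and hypomelanistic embryo 1 were the lowest. Members have short transcripts, with a median annotated length of 754 bases, beside 2281 bases over all genes. Length classes were therefore formed over the other tested genes with a mean of at least 10 CPM, a choice made after the values were seen. The same limit was put on the members, so those below it are not in the class counts. The 442 other genes under 1000 bases had median deviations of -0.07, 0.02 and 0.15 in hypomelanistic embryos 1 to 3, against 0.02, -0.12 and -0.02 in wild-type embryos 1 to 3. Of those genes 71.3% were higher in hypomelanistic embryos, and 46 of the 58 members in that class were.

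Between 1000 and 2000 bases, 55.0% of 1591 other genes and 7 of 16 members were higher. In the 3534 other genes of 2000 to 4000 bases, 51.2% were higher, beside 1 of 4 members. From 4000 bases upward 48.8% of 4447 other genes and 0 of 2 members were higher. Median log2 fold changes of the members in these classes, from short to long, were 0.08, -0.02, -0.03 and -0.11, beside 0.06, 0.02, 0.00 and -0.00 for the other genes. The part of transcript length in the members' fold changes was not tested.

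**Figure D4:**
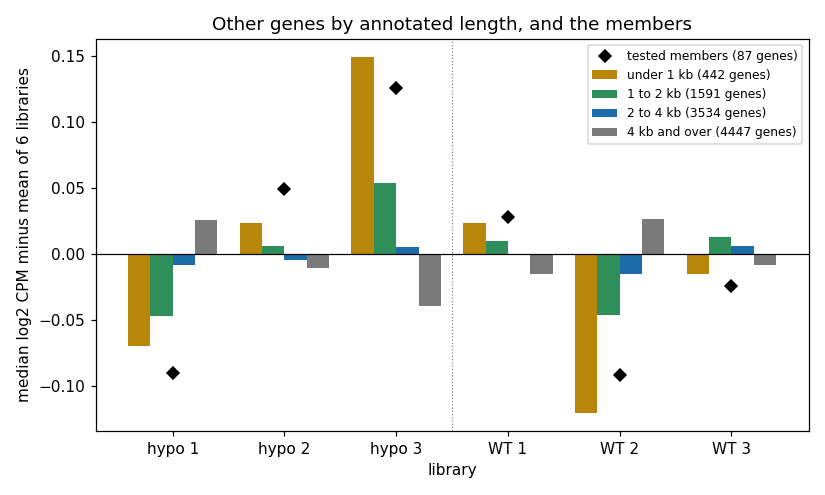
Median over genes of log2 CPM minus the mean of the 6 libraries, for other tested genes in 4 classes of annotated length (bars) and for the 87 tested members (diamonds), in each hypomelanistic (hypo) and wild-type (WT) library. Bars cover genes with a mean of at least 10 CPM, and the diamonds have no such limit. The 442 other genes under 1000 bases (1 kb) and the members were both lowest in hypomelanistic library 1 and wild-type library 2 and highest in hypomelanistic library 3.

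In complex I, 26 of 37 tested members were higher and 11 lower in hypomelanistic embryos (median log2 fold change 0.07). The 8 nuclear-encoded core rows (*NDUFS3*-like included), whose proteins carry the flavin and the iron-sulfur clusters, were 2 higher and 6 lower with a median of -0.05, and the supernumerary subunits 24 higher and 5 lower with a median of 0.08. Over all of complex I the median was 0.14 without hypomelanistic embryo 1, 0.025 without hypomelanistic embryo 3 and 0.019 without wild-type embryo 2. Median annotated length was 982 bases in the core subunits and 674 bases in the supernumerary ones. Summed core subunits reached 227, 254 and 244 CPM in hypomelanistic embryos 1 to 3, against 247, 245 and 233 CPM in wild-type embryos 1 to 3. These overlapped.

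Among the core subunits, *NDUFV1*, which binds the flavin and takes up NADH, had 63.7, 74.5 and 74.6 CPM in hypomelanistic embryos, against 77.7, 73.9 and 70.6 CPM in wild-type embryos. Its lowest value was that of hypomelanistic embryo 1, and the log2 fold change was -0.06 ± 0.0815 SE.

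*NDUFS1*, the largest core subunit, had 42.6, 47.8 and 37.4 CPM in hypomelanistic embryos, against 39.8, 51.4 and 41.3 CPM in wild-type embryos (log2 fold change -0.05 ± 0.128 SE). Both groups spread over about the same range. *NDUFS3*, *NDUFS7*, *NDUFS8* and *NDUFV2* had log2 fold changes between -0.08 and 0.09 with overlapping groups. *NDUFS3* shares bases on the opposite strand with *NDUFS3*-like (LOC117665546), which was barely detected at 0.291 to 0.629 CPM in hypomelanistic embryos and 0.418 to 0.581 CPM in wild-type embryos.

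The supernumerary subunits held both ends of the members' fold changes. *NDUFV3*, an accessory subunit next to the NADH binding site, had 9.44, 9.72 and 8.64 CPM in hypomelanistic embryos 1 to 3, against 12.02, 10.8 and 11.7 CPM in wild-type embryos 1 to 3. Every hypomelanistic value was below every wild-type value, and the log2 fold change was -0.32 ± 0.103 SE (edgeR adjusted p = 0.828). The gene lies on scaffold NW_026844054.1 at 18332170 to 18351602 of the CU assembly and overlaps *WDR4*. Whether strand was used in the counting is not known here, so reads of the overlapping part may have gone to either gene.

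*NDUFA3*, a small membrane-arm subunit, had 18.6, 10.7 and 11.8 CPM in hypomelanistic embryos 1 to 3, against 9.22, 8.001 and 9.06 CPM in wild-type embryos 1 to 3. Its groups were apart, but hypomelanistic embryo 1 was 1.57 times the next library. The log2 fold change was 0.65 ± 0.213 SE, and 0.36 ± 0.121 SE without hypomelanistic embryo 1. It lies at 4875149 to 4881384 of scaffold NW_026844041.1.

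*NDUFS5*, on the face of complex I toward the intermembrane space, had 71.0, 70.0 and 74.0 CPM in hypomelanistic embryos, against 68.9, 61.9 and 60.7 CPM in wild-type embryos. The groups were close but did not overlap (log2 fold change 0.17 ± 0.0694 SE). *NDUFB11*, a membrane-arm subunit, had 22.6, 24.6 and 27.7 CPM in hypomelanistic embryos, against 20.3, 20.8 and 21.1 CPM in wild-type embryos. Wild-type values lay within 1 CPM of each other, all below the hypomelanistic ones (log2 fold change 0.27 ± 0.0929 SE).

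Another membrane-arm subunit, *NDUFB2*, had 41.6, 43.9 and 50.3 CPM in hypomelanistic embryos, against 40.7, 39.8 and 40.4 CPM in wild-type embryos (log2 fold change 0.17 ± 0.0838 SE). *NDUFA8* had 44.2, 43.1 and 48.4 CPM in hypomelanistic embryos, against 43.3, 35.6 and 36.8 CPM in wild-type embryos (log2 fold change 0.23 ± 0.0948 SE). Its highest wild-type value exceeded the lowest hypomelanistic value by a small margin. *NDUFAB1*, the mitochondrial acyl carrier protein that is also a complex I subunit, had 41.4, 43.0 and 49.9 CPM in hypomelanistic embryos, against 41.5, 38.5 and 40.3 CPM in wild-type embryos, and the groups overlapped.

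*NDUFC1*, a small membrane-arm subunit, took 2 levels that crossed the genotypes. It had 19.3, 32.8 and 34.1 CPM in hypomelanistic embryos 1 to 3, against 19.8, 19.4 and 31.8 CPM in wild-type embryos 1 to 3. Hypomelanistic embryo 1 and wild-type embryos 1 and 2 were within 1 CPM of each other, and the other 3 embryos lay well above them. The log2 fold change was 0.28 ± 0.267 SE, the widest error of the well-expressed complex I members. What separates the levels was not tested.

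Of the 8 NDUFAF factors, 2 were higher and 6 lower in hypomelanistic embryos (median log2 fold change -0.06, or 0.022 without hypomelanistic embryo 1). These have longer transcripts (median 1731 bases) than the subunits. Their sum was 118, 140 and 149 CPM in hypomelanistic embryos 1 to 3, against 143, 141 and 145 CPM in wild-type embryos 1 to 3, so that the wild-type embryos agreed closely and hypomelanistic embryo 1 was low. *NDUFAF7* had 26.1, 43.4 and 44.4 CPM in hypomelanistic embryos, against 41.6, 40.9 and 48.0 CPM in wild-type embryos. The low value of hypomelanistic embryo 1 set its log2 fold change of -0.20 ± 0.196 SE, which was 0.01 ± 0.0877 SE without that library.

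*NDUFAF2*, a chaperone that binds the late assembly intermediate of complex I, had 10.1, 13.3 and 11.3 CPM in hypomelanistic embryos, against 12.9, 13.8 and 11.7 CPM in wild-type embryos (log2 fold change -0.15 ± 0.133 SE). *NDUFAF1*, of the intermediate that builds the membrane arm, had 19.9, 22.4 and 21.3 CPM in hypomelanistic embryos, against 20.3, 24.9 and 23.3 CPM in wild-type embryos (log2 fold change -0.11 ± 0.0998 SE). The groups of both genes overlapped. *NDUFAF3*, *NDUFAF4*, *NDUFAF5*, *NDUFAF6* and *NDUFAF8* had log2 fold changes between -0.11 and 0.13.

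Complex II has only nuclear-encoded subunits, and its 4 genes differed in direction, 1 higher and 3 lower in hypomelanistic embryos (median log2 fold change -0.02). *SDHA*, the flavoprotein that oxidizes succinate, had 52.5, 49.0 and 44.0 CPM in hypomelanistic embryos 1 to 3, against 49.1, 52.0 and 46.0 CPM in wild-type embryos 1 to 3. Those values overlapped fully (log2 fold change -0.02 ± 0.0863 SE). *SDHB*, the iron-sulfur subunit, had 46.3, 60.1 and 57.3 CPM in hypomelanistic embryos, against 61.0, 60.3 and 61.6 CPM in wild-type embryos. Its groups did not overlap, but hypomelanistic embryo 2 came within 1 CPM of the wild-type values, and the log2 fold change was -0.16 ± 0.1002 SE, or -0.06 ± 0.0613 SE without hypomelanistic embryo 1.

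The membrane anchors of complex II are *SDHC* and *SDHD*. *SDHC* had 55.8, 51.3 and 56.2 CPM in hypomelanistic embryos, against 48.7, 47.6 and 51.0 CPM in wild-type embryos. These groups were apart, though the lowest hypomelanistic and the highest wild-type value nearly met (log2 fold change 0.15 ± 0.0663 SE, edgeR adjusted p = 0.828). *SDHD* had 35.1, 39.9 and 52.1 CPM in hypomelanistic embryos, against 47.7, 42.6 and 38.6 CPM in wild-type embryos (log2 fold change -0.02 ± 0.153 SE). It overlaps the start of *TIMM8B* on the opposite strand, which had 39.2, 40.6 and 41.6 CPM in hypomelanistic embryos, against 37.9, 29.9 and 38.7 CPM in wild-type embryos. Summed complex II was 190, 200 and 210 CPM in hypomelanistic embryos, against 207, 203 and 197 CPM in wild-type embryos.

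Of the 7 complex III members, 4 were higher and 3 lower in hypomelanistic embryos (median log2 fold change 0.02), and no member had groups that were apart. The core proteins *UQCRC1*-like and *UQCRC2*-like had log2 fold changes of -0.07 ± 0.0805 SE and 0.02 ± 0.0560 SE. *UQCRFS1*-like, the Rieske iron-sulfur protein, had 39.4, 41.6 and 43.7 CPM in hypomelanistic embryos, against 41.9, 41.6 and 43.5 CPM in wild-type embryos (log2 fold change -0.03 ± 0.0673 SE). *UQCRH*-like, the hinge protein at the cytochrome c docking site, had 40.5, 54.2 and 55.8 CPM in hypomelanistic embryos, against 50.6, 41.3 and 40.9 CPM in wild-type embryos. Hypomelanistic embryos 2 and 3 were above all others and hypomelanistic embryo 1 was the lowest of the 6 (log2 fold change 0.18 ± 0.142 SE).

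*UQCRB*-like, which binds ubiquinone, had 19.99, 19.8 and 17.3 CPM in hypomelanistic embryos, against 21.7, 18.002 and 21.2 CPM in wild-type embryos (log2 fold change -0.10 ± 0.106 SE). *UQCR10*-like had 41.3, 45.4 and 46.1 CPM in hypomelanistic embryos, against 47.6, 39.4 and 41.5 CPM in wild-type embryos (log2 fold change 0.05 ± 0.0908 SE). Both groups overlapped for each gene. *CYC1*-like, the cytochrome c1 of complex III that falls outside the naming rule, had 66.7, 68.3 and 67.9 CPM in hypomelanistic embryos, against 61.6, 58.5 and 61.6 CPM in wild-type embryos. The groups did not overlap and both were tight, and the log2 fold change was 0.16 ± 0.0562 SE (edgeR adjusted p = 0.828). *CYCS*-like, for cytochrome c itself, had 9.94, 8.97 and 8.69 CPM in hypomelanistic embryos, against 8.96, 9.07 and 8.43 CPM in wild-type embryos (log2 fold change 0.06 ± 0.107 SE).

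Complex IV had the highest median log2 fold change of the complexes at 0.13, with 12 of 15 tested members higher and 3 lower in hypomelanistic embryos. Its summed level was 851, 837 and 931 CPM in hypomelanistic embryos 1 to 3, against 808, 750 and 811 CPM in wild-type embryos 1 to 3, and these did not overlap. Without *NDUFA4*, a choice made after its values were seen, the sum was 697, 753 and 837 CPM in hypomelanistic embryos, against 732, 678 and 734 CPM in wild-type embryos, and it overlapped. The median log2 fold change of the 14 tested members other than *NDUFA4* was 0.09. Without hypomelanistic embryo 3 the median log2 fold change of all of complex IV was 0.02, and without hypomelanistic embryo 1 it was 0.23.

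*NDUFA4* had 154.0, 84.0 and 93.5 CPM in hypomelanistic embryos 1 to 3, against 76.0, 72.7 and 77.3 CPM in wild-type embryos 1 to 3. Every hypomelanistic value was above every wild-type value, and hypomelanistic embryo 1 was 1.65 times the next library. The log2 fold change was 0.55 ± 0.213 SE (edgeR adjusted p = 0.828), and 0.24 ± 0.0723 SE without hypomelanistic embryo 1. *NDUFA4* lies on scaffold NW_026844094.1 at 1478216 to 1481370.

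*COX4I1*-like, the ubiquitous form of the regulatory subunit to which ATP binds, had 122.8, 121.7 and 145.2 CPM in hypomelanistic embryos, against 109.1, 108.9 and 123.4 CPM in wild-type embryos. The highest wild-type value lay between the hypomelanistic ones (log2 fold change 0.19 ± 0.0921 SE). *COX5A*-like was present as 2 rows. LOC132710923 had 66.1, 66.1 and 89.1 CPM in hypomelanistic embryos, against 71.0, 57.3 and 67.4 CPM in wild-type embryos, and LOC117660923 had a log2 fold change of 0.01 ± 0.0848 SE. Since only uniquely mapped pairs were counted, the levels of such copies are uncertain.

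*COX6C*-like had 74.3, 91.2 and 87.9 CPM in hypomelanistic embryos, against 73.4, 75.2 and 80.5 CPM in wild-type embryos (log2 fold change 0.15 ± 0.0894 SE). *COX7C*-like had 62.9, 76.4 and 93.6 CPM in hypomelanistic embryos, against 79.6, 72.5 and 79.3 CPM in wild-type embryos (log2 fold change 0.01 ± 0.137 SE). In both genes hypomelanistic embryo 1 was the lowest of its group. *COX5B*-like and *COX6B1*-like (LOC117669336) had log2 fold changes of 0.15 and 0.13, and *COX7B*-like and *COX7A2L*-like of 0.01 and 0.05.

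In mammals, several complex IV subunits have a form used in heart and skeletal muscle beside a form used in most tissues. A newer annotation of the species (ASM5975653v1) exchanges 2 of the names in the table. LOC117666818, named *COX6A1*-like in the table, is *COX6A2* there, the muscle form, and LOC117677904, named *COX6A2*-like, is *COX6A1*, the general form. LOC117677791, named *COX7A2*-like, is *COX7A1*, the muscle form, beside the *COX7A2*-like row LOC117674080. *NDUFA4*-like (LOC117666629) is *NDUFA4L2*, listed there as *COXFA4L2*, which hypoxia induces in mammals.

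By levels, the gene that the newer annotation calls *COX6A1* had 69.2, 73.6 and 79.9 CPM in hypomelanistic embryos 1 to 3, against 67.6, 62.1 and 66.2 CPM in wild-type embryos 1 to 3. The groups did not overlap (log2 fold change 0.18 ± 0.0740 SE). Its muscle form *COX6A2* had 1.57, 3.05 and 2.44 CPM in hypomelanistic embryos, against 1.84, 3.26 and 1.02 CPM in wild-type embryos. It made up 2.11%, 3.78% and 2.80% of the length-scaled pair in hypomelanistic embryos, against 2.52%, 4.73% and 1.43% in wild-type embryos. The mean shares differed by 0.00370 percentage points (exact two-sided permutation test, p = 1, adjusted p = 1 over 3 pairs, where 0.1 is the smallest p that 20 assignments allow).

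Skeletal muscle markers were detected in every library. Of 15 muscle markers 13 were found and tested, none at 0, with 3 higher and 10 lower in hypomelanistic embryos. They summed to 1022, 3958 and 2686 CPM in hypomelanistic embryos 1 to 3, against 2864, 4461 and 1245 CPM in wild-type embryos 1 to 3. The libraries with the most muscle markers, hypomelanistic embryo 2 and wild-type embryo 2, also had the highest *COX6A2* share of their groups. The part of muscle in this share was not tested.

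Per length, *COX7A1* was the larger form of its pair in all 6 libraries. It had 34.5, 46.5 and 31.6 CPM in hypomelanistic embryos, against 46.0, 45.0 and 38.7 CPM in wild-type embryos, and *COX7A2* had 31.3, 29.2 and 32.9 CPM in hypomelanistic embryos, against 33.8, 32.4 and 27.9 CPM in wild-type embryos. The *COX7A1* share was 54.5%, 63.3% and 51.1% in hypomelanistic embryos, against 59.6%, 60.1% and 60.1% in wild-type embryos. Hypomelanistic shares lay on both sides of the narrow wild-type range, with a mean difference of -3.63 percentage points (exact permutation test, p = 0.4, adjusted p = 0.6). *NDUFA4L2* had 2.52 to 3.23 CPM in hypomelanistic embryos and 2.06 to 4.55 CPM in wild-type embryos. It was 0.111%, 0.192% and 0.142% of its pair with *NDUFA4* in hypomelanistic embryos, against 0.316%, 0.1498% and 0.182% in wild-type embryos (difference -0.0675 percentage points, exact permutation test, p = 0.4, adjusted p = 0.6).

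Of the 16 tested complex V members, 12 were higher and 4 lower in hypomelanistic embryos (median log2 fold change 0.05). That median was 0.10 without hypomelanistic embryo 1, -0.0055 without hypomelanistic embryo 3 and 0.023 without wild-type embryo 2. *ATP5F1A* and *ATP5F1B*, the alternating subunits of the catalytic head, varied little. *ATP5F1A* had 364, 368 and 373 CPM in hypomelanistic embryos 1 to 3, against 374, 338 and 360 CPM in wild-type embryos 1 to 3 (log2 fold change 0.04 ± 0.0656 SE). *ATP5F1B* had 313, 331 and 319 CPM in hypomelanistic embryos, against 336, 305 and 325 CPM in wild-type embryos (log2 fold change -0.00 ± 0.0664 SE). Their 95% intervals reached no further than -0.11 and 0.20 for *ATP5F1A* and -0.16 and 0.15 for *ATP5F1B*.

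*ATP5F1D*, in the central stalk that turns inside the head, had 68.8, 65.4 and 73.2 CPM in hypomelanistic embryos, against 61.0, 59.3 and 56.7 CPM in wild-type embryos. The groups did not overlap and the log2 fold change was 0.23 ± 0.0670 SE, with the same value (0.23 ± 0.0749 SE) without hypomelanistic embryo 1. It had the smallest edgeR p of all members, which did not pass adjustment (edgeR adjusted p = 0.828, DESeq2 adjusted p = 0.588). *ATP5F1D* lies on scaffold NW_026843966.1 at 36992043 to 37002962. *ATP5MK*, a small membrane subunit at the contact between synthase dimers, had 36.9, 40.7 and 38.0 CPM in hypomelanistic embryos, against 33.1, 33.5 and 35.6 CPM in wild-type embryos (log2 fold change 0.18 ± 0.0709 SE). Its groups did not overlap either.

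*ATP5MC1*, *ATP5MC2* and *ATP5MC3* encode the same mature c subunit behind different import sequences in mammals. *ATP5MC1* had 28.8, 15.2 and 17.2 CPM in hypomelanistic embryos, against 17.8, 16.3 and 15.5 CPM in wild-type embryos. Hypomelanistic embryo 1 was 1.62 times the next library, and the log2 fold change was 0.30 ± 0.232 SE with it and -0.03 ± 0.108 SE without it. *ATP5MC2* had 106, 132 and 146 CPM in hypomelanistic embryos, against 140, 126 and 132 CPM in wild-type embryos (log2 fold change -0.06 ± 0.118 SE). *ATP5MC3* had 141, 149 and 170 CPM in hypomelanistic embryos, against 153, 139 and 146 CPM in wild-type embryos (log2 fold change 0.07 ± 0.0855 SE).

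The stalk and membrane subunits otherwise showed small differences. *ATP5PO*, *ATP5PB*, *ATP5PD* and *ATP5PF* of the peripheral stalk had log2 fold changes of -0.05, -0.00, 0.03 and 0.16. *ATP5MG*, *ATP5MF* and *ATP5ME* had 0.18, 0.14 and 0.01. *ATP5F1C* and *ATP5F1E*, the other central stalk subunits, had 0.05 and 0.04. Summed complex V was 1624, 1726 and 1815 CPM in hypomelanistic embryos, against 1727, 1587 and 1678 CPM in wild-type embryos, and it overlapped.

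**Figure D5:**
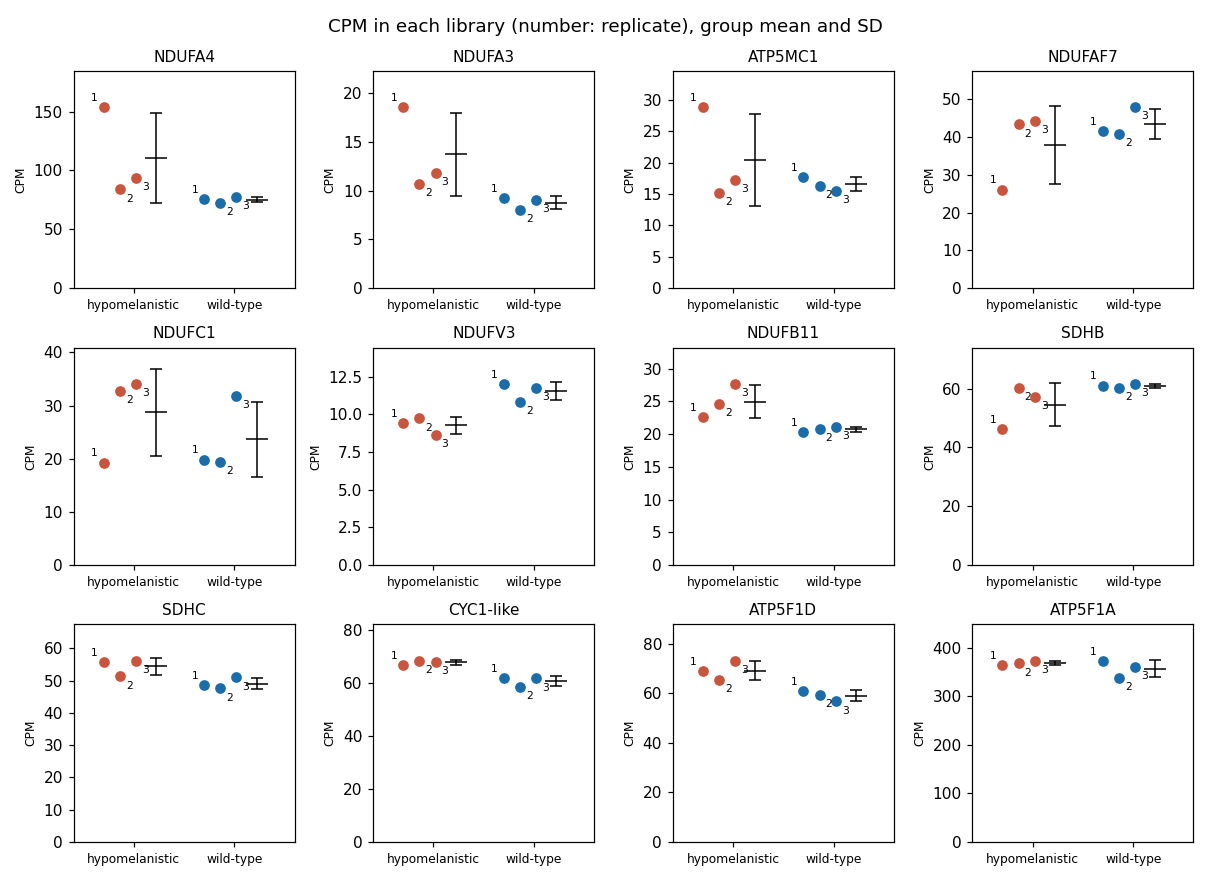
CPM of 12 genes in each of the 3 hypomelanistic and 3 wild-type embryos (points, with the replicate number), with the group mean and SD (bars) on a linear axis from 0. In *NDUFA4*, *NDUFA3* and *ATP5MC1* hypomelanistic embryo 1 lies far above the rest (154.0, 18.6 and 28.8 CPM) and in *NDUFAF7* and *SDHB* below it (26.1 and 46.3 CPM), while *NDUFC1* takes 2 levels across the genotypes and *ATP5F1D* and *CYC1*-like are separated by genotype with little spread.

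Few members had a single library far apart from the next, though smaller shifts of whole libraries moved the members' split, as given above. A library more than 1.3 times above or below the next was found for 6 members (6.90%, beside 19.99% of all tested genes). They were *NDUFA4*, *NDUFA3* and *ATP5MC1* with hypomelanistic embryo 1 on top, *NDUFAF7* with it at the bottom, *NDUFA4*-like with wild-type embryo 1 on top and *COX6A1*-like (LOC117666818) with wild-type embryo 3 at the bottom. *NDUFA4*, *NDUFA3* and *ATP5MC1* lie on 3 different scaffolds. The 19.99% is over tested genes of a lower median level than the members, and genes of equal level were not compared.

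The members are spread over 42 scaffolds, and 2 lie on that of *TYR*. *ATP5PF* and *ATP5PO* are 39004295 and 41730654 bases away from it. *ATP5PF* had 58.0, 67.2 and 71.1 CPM in hypomelanistic embryos, against 59.1, 54.7 and 61.3 CPM in wild-type embryos. *ATP5PO* had 69.2, 76.7 and 75.9 CPM in hypomelanistic embryos, against 75.5, 73.8 and 79.8 CPM in wild-type embryos. The groups of both overlapped.

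Many members start close to a gene that runs the other way. Of the 87 tested members 29 (33.3%) had a gene of this kind, beside 15.5% of all tested genes. Counted were genes on the opposite strand that did not overlap the member, with starts at most 1000 bases apart. Pairs that overlap at their starts, such as *SDHD* and *TIMM8B*, were left out of both shares. *ATP5PF* starts 118 bases from *GABPA*, a transcription factor subunit that binds many promoters of respiratory genes in mammals. *GABPA* had 33.5, 38.0 and 35.1 CPM in hypomelanistic embryos, against 33.4, 38.7 and 37.3 CPM in wild-type embryos (log2 fold change -0.04 ± 0.0855 SE). Of 24 tested partners 14 were higher and 10 lower in hypomelanistic embryos (median log2 fold change 0.05). edgeR called 0 of them, beside 0.0235% of all tested genes. At an unadjusted p under 0.05 there was 1 partner, beside 5.63% of all tested genes.

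Genes that serve the same pathway were compared from 5 lists. Assembly factors outside the NDUFAF prefix were 25 higher and 24 lower of 49 tested, the median log2 fold change being 0.01. Genes of the citric acid cycle, taken with pyruvate dehydrogenase, were 10 higher and 6 lower of 16 (median 0.02). Genes of coenzyme Q synthesis and electron transfer flavoprotein were 8 higher and 8 lower of 16 (median 0.00). Carriers and porins were 4 higher and 4 lower of 8 (median 0.00), and regulators of mitochondrial biogenesis 6 higher and 9 lower of 15 (median -0.02). edgeR called none in any list, beside 0.0235% of all tested genes. In the same order 3, 0, 1, 0 and 1 genes had an unadjusted p under 0.05 in edgeR, beside 5.63% of all tested genes. DESeq2 called 1 gene, of the assembly factor list, beside 0.475% of all genes with an adjusted p in that tool.

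That gene was *TMEM126A*-like (LOC117657883), named after a complex I assembly factor of the inner membrane and given no symbol in the newer annotation. It had 12.1, 10.9 and 12.3 CPM in hypomelanistic embryos 1 to 3, against 16.6, 16.1 and 16.5 CPM in wild-type embryos 1 to 3. Both groups were tight and well apart, with a log2 fold change of -0.48 ± 0.0904 SE. The adjusted p was 0.463 in edgeR and 0.0195 in DESeq2, so that its call rests on the tool, and without hypomelanistic embryo 1 the log2 fold change was -0.50. The gene lies on scaffold NW_026844016.1 at 1587475 to 1598714, 1565004 bases before *TYR* (3163719 to 3235830). That position is outside the interval that the study mapped for the trait, which holds *TYR*, but on the same scaffold. Since the embryos were sorted by genotype at that interval, linked sequence and the hypomelanistic allele cannot be told apart for this gene.

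Among the other assembly factors, *BCS1L*-like, which inserts the Rieske protein into complex III, had 12.9, 13.5 and 12.7 CPM in hypomelanistic embryos, against 15.8, 16.5 and 14.4 CPM in wild-type embryos (log2 fold change -0.26 ± 0.0923 SE, edgeR adjusted p = 0.828). Hypomelanistic values were all below the wild-type ones. *PDSS1*, which makes the side chain of coenzyme Q, had 21.5, 14.5 and 15.8 CPM in hypomelanistic embryos, against 13.7, 13.3 and 13.6 CPM in wild-type embryos. The groups did not overlap, with hypomelanistic embryo 1 highest, and the log2 fold change of 0.35 ± 0.152 SE was 0.16 ± 0.0952 SE without it. *COQ8B*, of the same synthesis, had 54.2, 49.0 and 52.2 CPM in hypomelanistic embryos, against 46.2, 45.2 and 46.3 CPM in wild-type embryos (log2 fold change 0.17 ± 0.0638 SE).

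*NRF1*, a transcription factor of respiratory gene promoters in mammals, had 15.3, 14.6 and 16.6 CPM in hypomelanistic embryos, against 13.5, 11.9 and 13.5 CPM in wild-type embryos (log2 fold change 0.25 ± 0.1002 SE). *POLG*, the polymerase of mitochondrial DNA, had 6.27, 7.77 and 8.55 CPM in hypomelanistic embryos, against 9.60, 9.52 and 8.46 CPM in wild-type embryos (log2 fold change -0.29 ± 0.145 SE). Groups were apart for *NRF1* and overlapped for *POLG*. *SLC25A6*, which exchanges ADP for ATP across the inner membrane, had 288, 323 and 347 CPM in hypomelanistic embryos, against 274, 274 and 299 CPM in wild-type embryos (log2 fold change 0.18 ± 0.0864 SE).

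*ATP5IF1*, the inhibitor protein of the ATP synthase, had a log2 fold change of 0.17 ± 0.0955 SE with 100.4, 105.7 and 121.6 CPM in hypomelanistic embryos, against 105.3, 89.0 and 97.9 CPM in wild-type embryos. In the citric acid cycle, *IDH3B* (log2 fold change 0.18 ± 0.0854 SE) and *SUCLG2* (-0.12 ± 0.0659 SE) had the smallest p, and neither passed adjustment (edgeR adjusted p = 0.828 for both).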

How the data were processed

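Poly(A) RNA of 6 dorsal skin samples (3 hypomelanistic, 3 wild-type embryos) was sequenced with a stranded mRNA kit. The authors aligned the read pairs to the CU assembly with STAR 2.7.10b and used featureCounts (Subread 2.0.6) to count pairs that mapped uniquely. The table deposited by the authors holds raw counts per gene, with no normalization. Of its 25735 lines 4 were broken (*DST* and *MACF1*) and were left out. Coordinates are those of the table, in the CU assembly. A newer assembly's annotation (ASM5975653v1) was used for names only. It held 23 of the 26 members named by an LOC number, gave a symbol for 21, and differed from the table in 5. Sequences were not used here, nor were the subunits encoded in the mitochondrial genome.

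The counts were tested with the quasi-likelihood test of edgeR 4.0.16 in R 4.3.3 (TMM factors, filterByExpr, genotype as the only term, Benjamini-Hochberg adjustment over 17025 genes at 0.05). Prior degrees of freedom were 3.24, and the common biological coefficient of variation was 0.17. The study used DESeq2, and DESeq2 1.42.0 was run as an alternative with limma-voom (limma 3.58.1), other size factors and filters, a replicate block, the first component of 500 genes as a covariate, ribosomal RNA genes left out, and each library left out. Each SE is the absolute log2 fold change divided by the square root of the quasi-likelihood F statistic. The 95% intervals were formed from this SE and the t quantile at the degrees of freedom of the model. Isoform shares were compared by exact permutation over 20 assignments. No 2 libraries agreed within sampling noise (chi-square per degree of freedom 23.3 to 76.3), and at this depth differences were read against the spread between embryos. The scripts were tested on simulated data.

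The text names, for each complex, the member with the highest length-scaled level and the 2 with the smallest p, all complex II, cytochrome c and ATP5MC genes, the isoform pairs and the members too low to test. For each pathway list it names the 2 genes with the smallest p. Other genes are named after their values were seen, for not overlapping between groups, for their role or for their position. Members and lists were chosen with earlier results of these data known. The values of 1 gene are not reported here.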

Additional observations from a re-analysis of the deposited data

How the results depend on the processing

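No member was called in any of 14 alternatives, and the members' median log2 fold change was 0.01 to 0.11 when each library was left out in turn. With the replicate block 57 members were higher and 30 lower, and 0 were called. In that fit 7 had an unadjusted p under 0.05 (8.05%, beside 5.42% of all tested genes). Same-numbered embryos did not deviate together (r = -0.0842, 0.113 and -0.00586). The labels name no pairing, and with so few embryos per group these correlations cannot exclude a step shared by same-numbered libraries. With the first component as a covariate 67 members were higher and 20 lower, and 0 were called. There 15 had an unadjusted p under 0.05 (17.2%, beside 5.49% of all tested genes). Over single libraries left out, the median of complex IV was 0.022 (without hypomelanistic embryo 3) to 0.23, of complex II -0.074 to 0.024, of complex III -0.0095 to 0.038, and the *COX6A2* share difference -0.727 to 0.922 percentage points. DESeq2 called 1 gene of the assembly factor list, *TMEM126A*-like (log2 fold change -0.48, adjusted p = 0.0195). Counts not divided by length gave an *NDUFA4L2* share difference of -1.19 percentage points, since its annotated length is far above that of *NDUFA4*.

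Of the 87 tested members 41 changed sign in at least 1 alternative, 37 of them with a log2 fold change within 0.1 of 0. Without hypomelanistic embryo 1, 15 changed sign, and 14 of these were lower with all libraries and higher without it, among them *NDUFV1* (0.01), *NDUFS3* (0.01), *UQCRFS1*-like (0.01) and *ATP5F1B* (0.01). Of the 40 genes that the naming rule gave, 12 changed sign in at least 1 alternative. With the first component as a covariate *ATP5MC1* was at -0.0029, *ATP5MC2* at 0.051, *COX7A2*-like (LOC117674080) at 0.0061, *COX7B*-like at -0.00057 and *SDHD* at 0.11. Leaving out each library gave ranges of log2 fold change of -0.029 to 0.48 for *ATP5MC1*, -0.16 to 0.065 for *ATP5MC2*, -0.011 to 0.13 for *ATP5MC3*, -0.11 to 0.71 for *COX6A1*-like (LOC117666818), -0.087 to 0.046 for *COX7A2*-like (LOC117674080), -0.019 to 0.14 for *COX7A2L*-like, -0.069 to 0.061 for *COX7B*-like, -0.30 to 0.31 for *NDUFA4*-like, -0.32 to 0.012 for *NDUFAF7*, -0.077 to 0.050 for *SDHA*, -0.19 to 0.10 for *SDHD* and -0.0095 to 0.13 for *UQCR10*-like. For these the cause was not tested. With 3 embryos per group, 79 of 87 members had a 95% interval inside 1.5-fold either way, and smaller differences can lie within the intervals.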

Other observations

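Of the rows of the table, 2 carry the names of mitochondrial genes but lie on nuclear scaffolds. *MT-ND4*-like (LOC132712432) had 81, 64 and 85 counts in hypomelanistic embryos 1 to 3, against 71, 72 and 54 counts in wild-type embryos 1 to 3. *MT-ND5*-like (LOC132712554) had 0 counts in all 6 libraries. They were not used as measures of the mitochondrial genome.

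The members varied little among embryos of 1 genotype. Their median SE of the log2 fold change was 0.095, beside 0.135 over all tested genes. The members also had higher levels (median 48.7 CPM per kb, beside 4.43), and genes of equal level were not compared. The median within-group coefficient of variation was 8.30% over the tested members, beside 11.4% over all tested genes. It was 2.60% for *UQCRC2*-like, 3.60% for *ATP5F1A* and 3.96% for *ATP5F1B*, against 26.0% for *ATP5MC1* and 29.1% for *NDUFC1*. Higher still were *NDUFA4*-like (31.0%), *NDUFS3*-like (33.8%) and *COX6A1*-like (LOC117666818, 45.2%).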
